A study of Homo sapiens with 6 samples.

Results

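The 3 empty-vector libraries of MDA-MB-231 are the control cells of a study of 6 RNA-seq libraries, and they were chosen as the columns labelled as the empty vector in the deposited tables. MDA-MB-231 is an established human breast cancer line that the study names as triple-negative. The control cells carried a vector without an insert, the other 3 libraries came from the same line with a SRPK2-FLAG construct, and each group had 3 biological replicates. Neither a drug, a time point nor a stable clone is named in the labels, and how the vector was delivered is not given in the sources used here. SRPK2, a kinase of splicing factors, was at 5.30, 5.09 and 5.90 FPKM in the empty-vector libraries and at 30.4, 35.3 and 43.5 FPKM in the SRPK2-FLAG libraries. These levels go with the labels, and no other value of the SRPK2-FLAG group was used. The levels below describe one line in culture and were not compared with any other cell or tissue.

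Triple-negative breast cancers are those in which the oestrogen receptor, the progesterone receptor and amplified ERBB2 are not found. Breast epithelium has a luminal layer, marked by keratins such as KRT8 and KRT18, and a basal layer, marked by keratins such as KRT5 and KRT14. Carcinoma cells that lose E-cadherin and gain vimentin are described as mesenchymal, and MDA-MB-231 is widely used as a line of that kind. It is also known to carry a BRAF mutation and a deletion of CDKN2A.

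FPKM is the number of sequenced fragments of a gene per kilobase of gene length, relative to the size of the library. It allows levels to be set side by side between genes, though their order can turn with the length used. A gene was called expressed when its FPKM was at least 1 in each of the 3 libraries. By that rule 11142 of the 29710 listed genes were expressed, which is 37.5%, and 10172 of the 16623 protein-coding genes were, which is 61.2%. Counts of expressed list members below are read against that share, and a list near it does not stand apart from other genes. List shares count members with no row in the whole, whereas the 61.2% covers only genes with a row. The share of a list with such members is therefore lower than over its members with a row. Of the protein-coding genes, 3739 reached 10 FPKM in every library, which is 22.5%, and 326 reached 100. Only 647 of 8213 long noncoding RNAs were expressed, or 7.88%. Totals were 35698295, 33590410 and 36225361 reads for replicates 1, 2 and 3. Single levels given below are means of the 3 libraries, and 3 values in a row are replicates 1, 2 and 3. The median coefficient of variation of an expressed gene over the 3 libraries was 4.76%.

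Transcripts of the mitochondrial genome stood highest. Its 37 genes took 9.82%, 9.38% and 9.33% of all reads and 31.8%, 30.2% and 31.1% of the FPKM sum. MT-CO2, a subunit of cytochrome c oxidase, was at 15098, 14590.4 and 14619.6 FPKM. MT-CO3, of the same complex, was at 13156, and the ATP synthase subunits MT-ATP6 and MT-ATP8 were at 11668 and 10599. The third oxidase subunit MT-CO1 was at 8255. Among the complex I subunits, MT-ND4 was at 8211, MT-ND3 at 7842, MT-ND2 at 7127 and MT-ND1 at 4777. The others were lower, with MT-ND4L at 2076, MT-ND5 at 1192 and MT-ND6, which the opposite strand encodes, at 722. MT-CYB of complex III was at 4076. All 13 protein genes of this genome therefore lay at or above the 744, 713 and 710.1 FPKM of MT-ND6, and the ranges of MT-CO1 and MT-ND4 overlapped.

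The nuclear genes of highest level were those of iron storage, the actin skeleton, S100 proteins, glycolysis and translation. FTL, the light chain of ferritin, led with 3765, 3892 and 3456 FPKM, and FTH1, the heavy chain, was at 1698, 1646 and 1609.7. TMSB10 and TMSB4X, which bind actin monomers, were at 3340.0 and 1321. The actins ACTB and ACTG1 were at 1477 and 759, and profilin PFN1 at 1241. The S100 proteins S100A6 and S100A11 were at 2196 and 982. GAPDH, a glycolytic enzyme, was at 1787, 1804 and 1667. Translation, the cytoskeleton and protein folding gave most of the rest: the ribosomal proteins RPS18, RPS12 and RPL7A at 919, 902 and 703, the elongation factor EEF1A1 at 793, and the proteins TUBB, HSP90AB1, TXN and VIM at 871, 720.2, 649.7 and 626. Vimentin, the intermediate filament of mesenchymal cells, was thus the twentieth nuclear gene, with IGFBP4 next at 626.

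Neither of the remaining genes among the first 20 is protein-coding. MTATP6P1, at 1668, 1535 and 1502 FPKM, is an unprocessed pseudogene on chromosome 1 that copies the mitochondrial MT-ATP6, so reads of the mitochondrial gene cannot be told apart from its own. CH17-66N5.1, a long noncoding RNA at 1053, 1263 and 974, is wholly overlapped on its strand by another annotated gene, so its value is uncertain too. The 100 most counted genes took 24.5%, 24.4% and 23.5% of the reads, and the 1000 most counted took 54.6%, 54.9% and 53.7%.

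**Figure D1:**
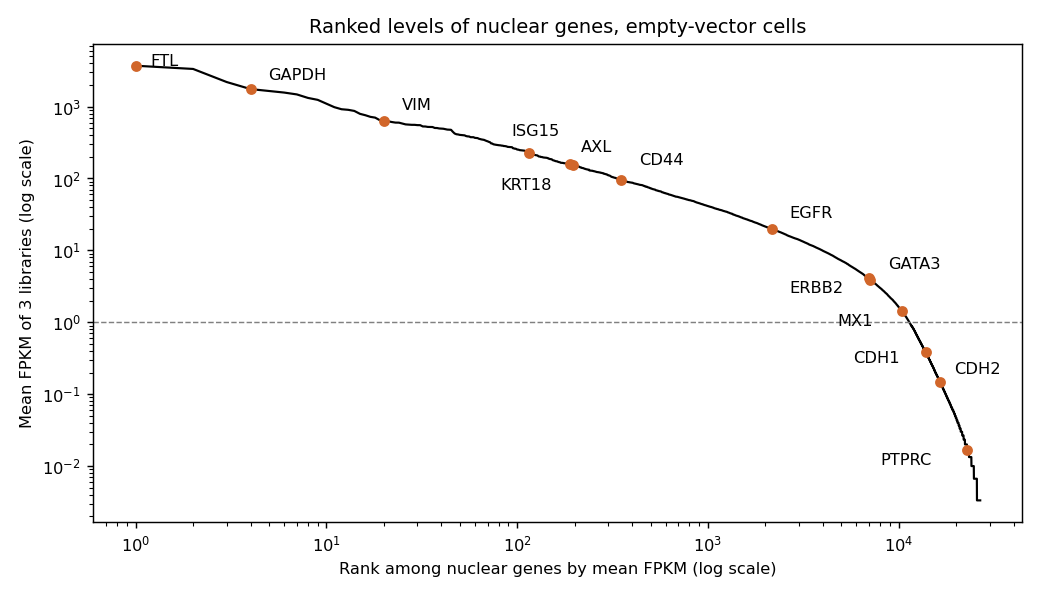
Mean FPKM of 3 empty-vector libraries (log scale) against rank among nuclear genes (log scale). Points mark named genes and the dashed line is 1 FPKM. FTL is first at 3704, VIM twentieth at 626, and PTPRC, a leukocyte marker, is far below the line at 0.0167.

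The receptors that define the triple-negative class were low or near absent in these libraries. ESR1, the oestrogen receptor, had 0, 1 and 1 reads and no row in the FPKM table. PGR, the progesterone receptor, had 4, 0 and 3 reads. ERBB2 was at 4.18, 3.95 and 4.13 FPKM, a detectable level below the 6.73 FPKM median of expressed protein-coding genes. Of the other nuclear receptors, the glucocorticoid receptor NR3C1 was at 10.02, 9.77 and 10.6, RARG at 5.83, PPARG at 3.79 and RARA at 3.49. NR3C1 was the highest by FPKM, but with reads divided by the length of the principal transcript PPARG was at 24.6, above NR3C1 at 12.7 and RARG at 10.1. In all, 7 of 13 steroid and related receptors were expressed, or 53.8%, against 61.2% of protein-coding genes, and ESR2 at 0.167 was not.

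Several other growth factor receptors stood above ERBB2. EGFR, the receptor of EGF, was at 19.9, 18.7 and 21.2 FPKM, while ERBB3 was at 0.257 and ERBB4 had 1 read in all. AXL, the receptor of GAS6, was the highest of 37 other receptor tyrosine kinases at 159, 152 and 159.9. The ephrin receptor EPHA2 was at 55.7, 52.2 and 57.3, the HGF receptor MET at 28.6, 28.01 and 29.8 and EPHB4 at 8.25. Of these 37 kinases 16 were expressed, 18 were below 1 FPKM in some library and 3, NTRK3, RET and ALK, have no row in the tables used here. Their share was 43.2%, counting those 3 in the whole, against 61.2% of all protein-coding genes with a row.

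Ligands of the same receptors were found beside them. AREG, which binds EGFR, was at 108, 114 and 118 FPKM, and the EGFR ligands HBEGF and TGFA were at 30.7 and 14.5. The vascular growth factors VEGFC and VEGFB were at 49.9 and 49.8, and VEGFA at 14.5, 13.96 and 15.4. On the principal transcript length VEGFA was at 175.7, above AREG at 150.05, VEGFB at 71.04 and VEGFC at 63.2, so the order of these ligands turns with the length used. GAS6, the ligand of AXL, was at 26.9. EGF itself was at 0.19, and HGF and IGF1 have no row. Of 26 ligands 14 were expressed, or 53.8%, counting 2 with no row, against 61.2% of protein-coding genes with a row.

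The keratins were those of the luminal layer. KRT18 was at 159, 155 and 149 FPKM, KRT19 at 103, 99.7 and 94.2, KRT7 at 90.6, 87.6 and 85.3 and KRT8 at 85.96, 84.8 and 81.6. All 4 luminal keratins were expressed, each above 80 FPKM in every library. Of 7 basal keratins none was: KRT15 was at 0.697, KRT17 at 0.457, KRT14 at 0.06, KRT6A at 0.0167 and KRT16 at 0.00667. KRT5 had 0 reads in each library and KRT6B has no row. With levels as TPM and a threshold of 1, 2 of the 7 passed. The ranges of the luminal and basal keratins did not overlap in any library.

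Transcription factors of luminal cells were mixed. XBP1, a factor of the secretory pathway, was at 28, 28.3 and 27.8 FPKM, and of the ETS factors SPDEF was at 18.6, 18.5 and 17.7 and EHF at 14.99, 14.2 and 15.4. MLPH, often used as a luminal marker, was at 14.4. GATA3, a main regulator of luminal fate, was lower at 3.78, 4.03 and 3.98. FOXA1, its partner in luminal cells, had 0, 1 and 2 reads. Of 16 luminal genes 9 were expressed, near the 61.2% of protein-coding genes.

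Epithelial adhesion was mostly low. CDH1, E-cadherin, was at 0.38, 0.33 and 0.44 FPKM, which is 91, 74 and 108 reads. EPCAM, an epithelial adhesion protein, was at 5.03, 5.46 and 5.84. The highest of 24 junction and epithelial splicing genes was claudin CLDN4 at 16.3, 16.2 and 15.8, followed by desmoplakin DSP at 6.87, EPCAM, and CLDN7 at 5.39. ESRP1, an epithelial splicing regulator, had 0, 4 and 0 reads, while its relative ESRP2 was at 1.36. In all 9 of 24 were expressed, or 37.5%, against 61.2% of protein-coding genes. The median over the members with an FPKM value was 0.430 FPKM.

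Mesenchymal genes were higher but also uneven. VIM was at 629.9, 615 and 633 FPKM and the galectin LGALS1 at 399.6, 450.4 and 358. S100A4, a calcium-binding protein tied to motility, was at 246, 294 and 239. Replicate 2 was highest for LGALS1 and S100A4 and lowest for VIM. Of 30 mesenchymal genes 20 were expressed, or 66.7%, close to the 61.2% of protein-coding genes, with a median of 9.35 FPKM over the 28 with a value. Among the transcription factors of this programme, SNAI2 was at 15.8, 16.2 and 17.04 and ZEB1 at 4.01, 4.2 and 4.64, whereas SNAI1 and ZEB2 were at 0.797 and 0.293. CDH2, N-cadherin, was at 0.14, 0.15 and 0.16, so neither E-cadherin nor N-cadherin reached 1 FPKM, while CDH11, another mesenchymal cadherin, was at 7.34, 6.98 and 7.66. TWIST1 and TWIST2 have no row.

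Surface markers of breast stem-like cells and drug targets ranged widely. CD44, the hyaluronan receptor, was at 96.5, 93.2 and 96.9 FPKM and CD24 at 4.75, 4.86 and 4.7. The integrin ITGA6 was at 46.9, PROCR at 24.3 and the aldehyde dehydrogenase ALDH1A3 at 2.74, while ALDH1A2 was at 0.0167, PROM1 at 0.00333 and ALDH1A1 has no row. Among 17 surface proteins aimed at by breast cancer drugs, tissue factor F3 was highest at 227, 222 and 244. The zinc transporter SLC39A6 was at 17.8 and NECTIN4 at 0.01.

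**Figure D2:**
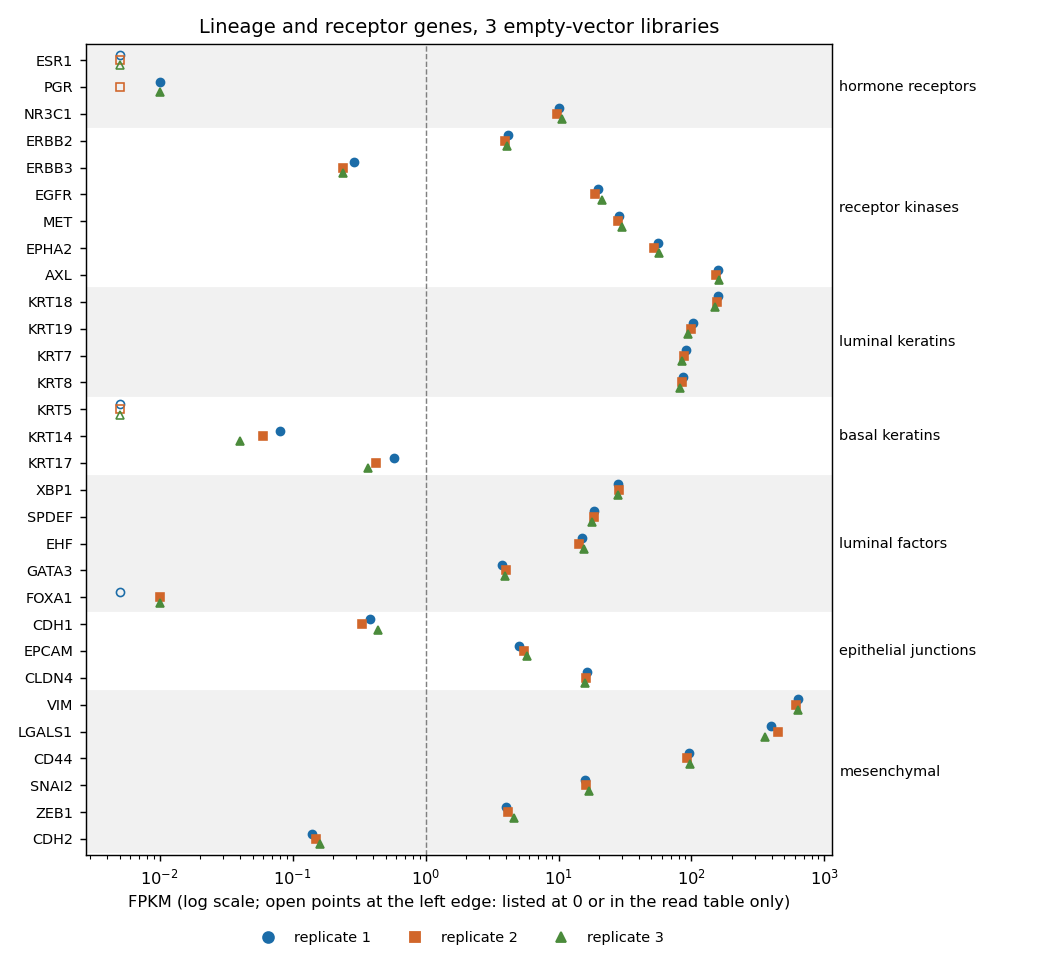
FPKM (log scale) of lineage and receptor genes in each of the 3 empty-vector libraries, 1 symbol per replicate; the dashed line is 1 FPKM. The 4 luminal keratins sit above 80 FPKM and the basal keratins below 1. VIM is near 626, while CDH1 and CDH2 both lie under the line.

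Markers of other cell types were few, as were genes of body position. PTPRC, the common leukocyte antigen, had 1, 9 and 7 reads. Of 14 leukocyte markers 2 were expressed, CD14 at 3.1, 3.2 and 3.39 FPKM and CD68 at 1.68. CD8A was at the threshold at 1, 0.96 and 1.06, CSF1R was at 0.61 and CD4 had 0 reads. Of 10 endothelial markers 2 were, with the junction protein ESAM at 32.5, 31.8 and 30.7 and ROBO4 at 3.59. KDR and PECAM1 were at 0.47 and 0.43, while VWF had 3 reads in all and CDH5 has no row. None of 13 fibroblast and adipocyte markers was expressed, and LUM, COL1A1, PDGFRB and COL1A2 were highest at 0.823, 0.363, 0.217 and 0.123. Of 25 markers of other organs 1 was, PAX8 at 2.22, 1.97 and 1.82, and WT1, SYP and PMEL were at 0.44, 0.433 and 0.243. WT1 passed the threshold at 2.32 on the principal transcript length, which made 2 of the 25. With levels as TPM and a threshold of 1, 4 leukocyte and 4 endothelial markers passed. So did 2 fibroblast and adipocyte markers and 3 of other organs. PTPRC and VWF were thus near 0 and PDGFRB was at 0.217, while ESAM, ROBO4, CD14 and CD68 were expressed.

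HOX genes, which set position along the body axis, were nearly all low. None of 11 HOXA genes and none of 9 HOXC genes was expressed. HOXB9 was at 4.5, 4.39 and 3.93 FPKM, the one expressed gene of 10 in HOXB, and HOXB3, HOXB4 and HOXB7 were at 0.577, 0.417 and 0.403. HOXA13 led the HOXA cluster at 0.13. HOXD1 was at 2.38, 2.45 and 2.87 and HOXD4 at 2.17, 2.01 and 1.89. In the HOXC cluster HOXC8, HOXC6, HOXC9, HOXC4 and HOXC5 were at 0.307, 0.24, 0.167, 0.0567 and 0.0233, and HOXC10, HOXC11, HOXC12 and HOXC13 have no row. In the HOXD cluster HOXD3, HOXD12 and HOXD11 were at 0.45, 0.03 and 0.01, and HOXD8, HOXD9, HOXD10 and HOXD13 have no row. Cancer-testis genes, normally restricted to germ cells, gave 1 high member. SPANXB1 was at 179, 212 and 169.7, then CT83 at 13.5, 15.4 and 14.3, PAGE5 at 4.44 and MAGEC2 at 2.097. Of 25 such genes 8 were expressed, or 32.0%, counting 9 with no row, against 61.2% of protein-coding genes with a row. Many cancer-testis genes have near-identical copies, so their single values are uncertain.

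The RAS to ERK pathway, which carries growth signals from receptors to the nucleus, was expressed nearly in full. Of the GTPases, HRAS was at 49.4, 48.7 and 47.3 FPKM, RRAS at 43.97, NRAS at 38.1, 37.6 and 40.04, RRAS2 at 30.8 and MRAS at 1.45. Of the kinases, MAP2K2 was at 36.6, MAP2K1 at 29.99, ARAF at 15.98 and MAPK3 at 7.45. BRAF was at 1.02, 0.95 and 0.96, just under the threshold, and at 3.55 when its reads were divided by the length of its principal transcript. Of 18 outputs and negative regulators 17 were expressed, with a median of 12.8 FPKM, and 10 of them reached 10 FPKM. Those named here are from the upper end: the AP-1 factor FOSL1 was at 170, 157 and 162, PHLDA1 at 123, cyclin CCND1 at 86.5, 79.6 and 89.95, EPHA2 at 55.1 and the phosphatase DUSP6 at 46.2. In all 29 of 31 pathway genes were expressed, against the 61.2% background. No base of these genes was read here, so the levels say nothing of their mutations.

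Tumour suppressors varied in level. The CDK inhibitor CDKN1A was highest at 36.9, 35.5 and 35.02 FPKM, then CDKN2D at 16.7 and CDKN2C at 13.97. RB1, which restrains entry into the cell cycle, was at 8.17. NF1, NF2 and KMT2C were below 1 FPKM, at 0.537, 0.7 and 0.537, but NF1 and KMT2C passed it at 1.17 and 1.70 on the principal transcript length. CDKN2A, CDKN2B and MTAP have no row in the tables used here. Of 20 suppressors 14 were expressed, or 70.0%, against 61.2% of protein-coding genes, and 4 reached 10 FPKM. The median of those with a value was 3.56 FPKM.

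These 3 genes lie in a longer stretch of chromosome 9 in GRCh38. From IFNB1 at 21077105 to the end of IZUMO3 at 24545946, 24 consecutive protein-coding genes of GENCODE 29 have no row, over 3.47 megabases. The stretch holds 16 interferon genes and 8 others: KLHL9, MTAP, AL359922.1, CDKN2A, CDKN2B, DMRTA1, ELAVL2 and IZUMO3. By number of genes it tied at rank 5 of 1884 such runs in the genome, where 83.1% of 19969 protein-coding genes have a row. The longest run, of 61 genes on chromosome 11, begins with the olfactory receptor gene OR4C3. On one side of the stretch HACD4 had 1 read and FOCAD 91 reads, while MLLT3 farther out was at 1.65 FPKM. On the other side TUSC1 was at 6.98, CAAP1 at 9.55 and PLAA at 13.1. Whether DNA is missing there was not tested.

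Glucose metabolism genes were uneven, with 1 isozyme often far above its relatives. SLC2A1, the basal glucose transporter, was at 64.9, 63.5 and 66.6 FPKM, SLC2A3 at 5.73, SLC2A12 at 0.317 and the insulin-responsive SLC2A4 at 0.0267. Hexokinase HK1 was at 37.8, 33.4 and 35.5, HK2 at 11.9, 11.8 and 13.1 and HK3 at 0.00667. GAPDH was followed by enolase ENO1 at 479, 470 and 478, TPI1 at 279.6 and PKM at 283, 270.4 and 268. LDHA, the form of lactate dehydrogenase that favours lactate, was at 384, 399.7 and 383 and LDHB at 11.98, 15.7 and 12.9, and no library's LDHB value came near its LDHA value. Pyruvate dehydrogenase subunits PDHA1 and PDHB were at 30.4 and 28.4, and the carrier MPC1 at 25.1. The lactate exporter SLC16A3 was at 37.7, 36.8 and 36.9, whereas SLC16A1 had 19, 10 and 12 reads and was at 0.0567. Of 48 genes of this group 35 were expressed, or 72.9%, against 61.2% of protein-coding genes. The median over the members with an FPKM value, those below 1 FPKM included, was 7.19 FPKM. Aldolase ALDOA was listed at 0.61, 0.45 and 0.66, yet CTD-2515O10.6, a gene that overlaps 42.3% of it on the same strand, was at 299, so how reads were assigned between them is uncertain.

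The pentose phosphate pathway and the citric acid cycle were expressed nearly in full. TALDO1 was highest in the first at 87.5, 87.4 and 86.7 FPKM, then PGD at 40.4 and TKT at 35.5. PGLS, RPIA and RPE were at 17.4, 15.4 and 11.1, and TKTL1 was at 0.00667. All 18 enzymes of the cycle were expressed, with MDH2 at 74.5, 71.8 and 72.7, SDHC at 51.5, SDHD at 50.6 and SDHB at 41.5. SUCLA2 was lowest at 3.42.

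In serine synthesis the first enzyme was low and the next ones were not. PHGDH, which starts the pathway, was at 0.14, 0.13 and 0.11 FPKM, with 49, 43 and 41 reads. Of the next enzymes, PSAT1 was at 32.9, 34.7 and 32.2 and PSPH at 9.43, 9.66 and 9.68. TYMS, which makes thymidylate, was at 102 and SHMT2 at 29.6. Of 14 serine and one-carbon genes 10 were expressed, or 71.4%, against 61.2% of protein-coding genes. PHGDH stayed under 1 at 0.443 on the principal transcript length.

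Glutamine and other amino acids had their main carriers and enzymes. The glutamine transporter SLC1A5 was at 57.9, 53.4 and 54.1 FPKM, the aminotransferases GOT2 and GOT1 at 36.6 and 34.3, and GLUD1 at 10.9. GLUL was at 6.91 and ASNS at 6.11, while GLS2 and GLUD2 were at 0.0767 and 0.04. Of 7 amino acid transporters 6 were expressed, or 85.7%, against 61.2% of protein-coding genes. SLC38A2 was at 46.3, SLC3A2 at 40.7, SLC7A5 at 36.8, SLC38A1 at 22.9, SLC7A1 at 10.9 and SLC7A11 at 4.3. SLC6A14 was at 0.0833. Of the polyamine enzymes, SMS was at 166, 165 and 174, SRM at 74.97 and ODC1 at 58.3, and SAT1, which breaks polyamines down, at 38.2.

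Genes of lipid synthesis were present almost throughout, and those of uptake and oxidation less so. Of 16 fatty acid synthesis genes 15 were expressed, led by the elongases ELOVL5 at 67.5 FPKM and ELOVL1 at 58.9, ACSL5 at 47.97 and ACLY, which makes cytosolic acetyl-CoA, at 47.3. FASN, the fatty acid synthase, was at 6.91, 6.1 and 6.95. Of 13 uptake and oxidation genes 8 were expressed, or 61.5%, near the background of 61.2%, with ACADVL at 41.95, HADHA at 33.5, FABP5 at 25.8 and HADHB at 20.5. CD36, a fatty acid receptor, was at 0.01. All 19 cholesterol genes were expressed, with PMVK at 44.01, FDPS at 42.99 and CYP51A1 at 36.6.

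Redox genes had the highest median of the metabolic lists of nuclear genes, 78.0 FPKM. Of 28 members 26 were expressed, or 92.9%, against 61.2% of protein-coding genes. Behind the ferritins came thioredoxin TXN at 606, 764 and 579 and the peroxiredoxin PRDX1 at 344. Glutathione peroxidase GPX1 was at 247, 259.9 and 216 and GPX4, which protects membrane lipids, at 118, 134 and 111. GPX2 had 0 reads in each library. The NRF2 gene NFE2L2 was at 22.2 and its inhibitor KEAP1 at 26.3.

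**Figure D3:**
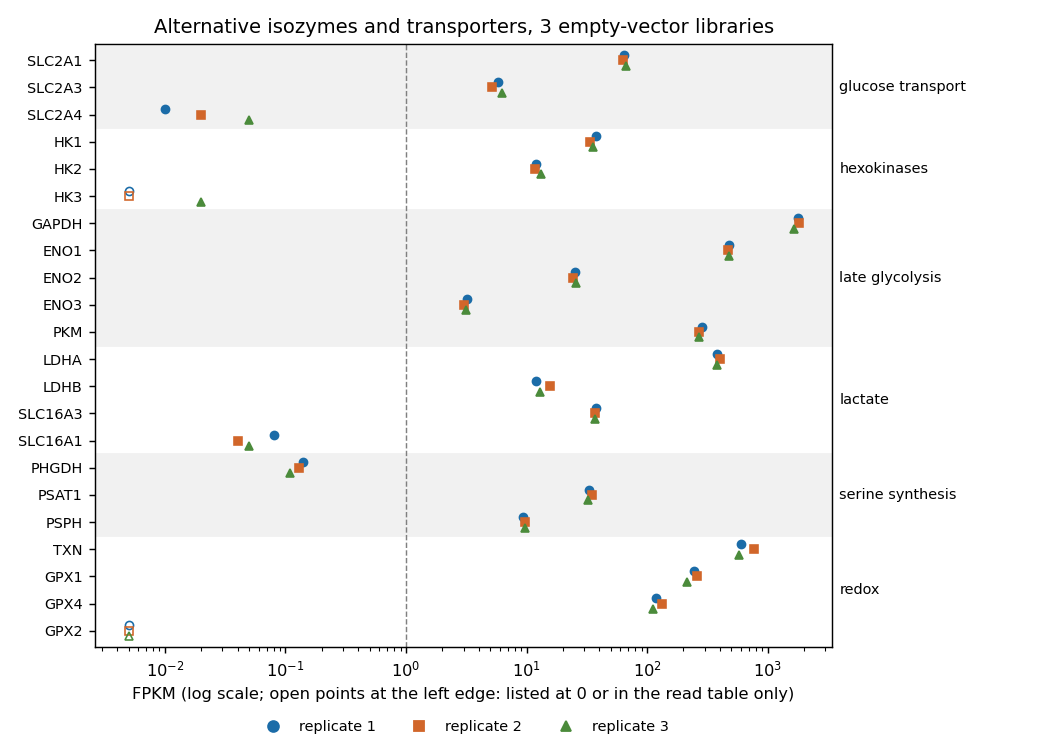
FPKM (log scale) of alternative isozymes and transporters in each of the 3 empty-vector libraries, 1 symbol per replicate; the dashed line is 1 FPKM. LDHA lies near 389 and LDHB near 13.5. SLC16A1, PHGDH, HK3 and GPX2 sit left of the line beside partners well to its right.

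Antiviral defence starts with sensors of foreign nucleic acid, which signal through adaptors to switch on interferons. Secreted interferons act on receptors and STAT factors, and the STAT complex binds a DNA element with repeated GAAA letters in front of its target genes. The promoters below are shown as examples of effectors at high levels that hold those letters. IFITM3 and IFI44, at like levels, also held them, while UBE2L6, at 35.15 FPKM beside IFIT1 at 36.6, held none. Each is the 160 bases before the RefSeq start in GRCh38.p14, written 5′ to 3′ on the gene's strand, with capitals for matches to GAAA, any 2 bases and GAAA again, on either strand; overlapping matches run together.
ISG15: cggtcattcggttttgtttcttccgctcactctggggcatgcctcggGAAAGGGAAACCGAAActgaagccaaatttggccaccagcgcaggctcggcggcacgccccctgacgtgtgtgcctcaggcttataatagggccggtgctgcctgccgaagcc
IFIT3: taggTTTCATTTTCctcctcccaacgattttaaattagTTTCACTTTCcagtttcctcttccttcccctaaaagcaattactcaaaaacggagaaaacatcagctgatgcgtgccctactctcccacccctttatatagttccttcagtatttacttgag
IFIT1: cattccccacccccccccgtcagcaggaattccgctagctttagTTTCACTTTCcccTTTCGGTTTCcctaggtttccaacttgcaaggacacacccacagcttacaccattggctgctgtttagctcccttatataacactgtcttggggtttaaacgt
BST2: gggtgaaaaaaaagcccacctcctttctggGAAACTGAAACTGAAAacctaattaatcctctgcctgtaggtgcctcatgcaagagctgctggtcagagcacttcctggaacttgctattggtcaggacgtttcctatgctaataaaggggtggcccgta
They lie at chr1:1013337-1013496 on the plus strand, chr10:89327837-89327996 on the plus strand, chr10:89392463-89392622 on the plus strand and chr19:17405631-17405790 on the minus strand. Each held 2 matches in this window, and those of ISG15 ended 97 and 103 bases before the start.

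The search used the window from 250 bases before to 50 bases after each start. Of 58 effectors 42 matched a promoter by symbol, and 27 of those held the letters, which is 64.3%. Among the 12847 protein-coding genes matched, 3.06% held them. Of the 27 effectors with the letters 26 were expressed, with a median of 7.31 FPKM. Of the 15 without them 12 were, with a median of 4.82. Of all 12847 matched genes 8164 were expressed, and 2.94% of these held the letters, against 3.27% of those not expressed. Neither a match nor its absence shows whether a factor binds.

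The effectors were expressed widely and at very unequal levels. ISG15, a ubiquitin-like protein, was at 225, 248 and 212 FPKM. BST2, which tethers budding virus, was at 106, 115 and 97.99, and IFITM3, which blocks viral entry, at 84.2, 81.8 and 78.2. Of the RNA-binding proteins, IFIT3 was at 80.2, 82.95 and 80.8 and IFIT1 at 36.1, 37.5 and 36.2, and IFI44 was at 48.9. MX1, a GTPase that traps viral capsids, was only at 1.56, 1.32 and 1.37, and OAS1, a sensor of double-stranded RNA, at 0.36, 0.4 and 0.39. OAS1 passed the threshold at 2.96 on the principal transcript length. In all 47 of 58 effectors were expressed, or 81.0%, against 61.2% of protein-coding genes, with a median of 5.19 FPKM.

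Of 25 sensors, adaptors and factors upstream 18 were expressed, or 72.0%, and none of 9 interferon genes was. Of the 11 genes of RNA sensing 6 were, or 54.5%, counting 1 with no row, against 61.2% of protein-coding genes with a row. The RNA sensor DDX58, also called RIG-I, was at 11.6, 11.7 and 12.1 FPKM and IFIH1 at 7.48, 6.98 and 7.52. Their adaptor MAVS was at 14.8, 13.5 and 14.6 and TICAM1 at 5.79; TLR3 was at 0.787. Of the DNA sensors, IFI16 was at 26.9, CGAS at 19.6, 20.4 and 21.3, AIM2 at 6.58 and the adaptor STING1 at 6.27, 5.79 and 5.86. SAMHD1, which breaks down nucleotides, was at 8.82. TREX1 has no row, and ATRIP, which overlaps all of it on its strand, was at 3.62. The factors behind them were IRF3 at 19.5, RELA at 16.7, NFKB1 at 6.14, IRF1 at 5.97, IKBKE at 5.94, TBK1 at 2.57, IRF7 at 2.54 and IRF5 at 0.32. Among 9 interferon genes IFNL1 had 5, 7 and 3 reads, IFNL3 was at 0.0467 FPKM and IFNL2 at 0.0167. IFNA1, IFNA2, IFNB1, IFNE, IFNK and IFNG have no row, and the first 4 of these lie in the stretch of chromosome 9 described above.

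Receptors and signalling factors of interferon were at moderate levels. IFNGR2 and IFNGR1 were at 25.7 and 11.8 FPKM, and of the type I receptor chains IFNAR1 was at 8.58, 8.59 and 8.91 and IFNAR2 at 3.91, 3.64 and 4.11. The type III receptor chain IFNLR1 was at 0.833. STAT3 was at 9.11, SOCS3 at 8.61 and STAT2 at 8.64, 8.06 and 8.98. IRF9, a partner of STAT2, and IL10RB were listed at 0.17 and 0.06, but same-strand genes that overlap 48.4% and 38.1% of them were at 3.01 and 6.97, so these values are uncertain.

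Antigen presentation genes of class I had a median of 17.98 FPKM and those of class II of 3.38. Among the higher ones B2M, the light chain of class I, was at 176, 198 and 170 FPKM, HLA-B at 170.2 and HLA-E at 98.96. Of 16 class I genes 15 were expressed and of 10 class II genes 7, or 70.0%, against 61.2% of protein-coding genes. In class II the invariant chain CD74 was at 31.1, 29.3 and 28.5, HLA-DRA at 26.1, 30.6 and 25.5, HLA-DRB1 at 5.79 and HLA-DMA at 4.697. CIITA, the class II master regulator, was at 0.38, 0.36 and 0.37. HLA genes are polymorphic copies of each other, and how reads that fit several were counted is not given.

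**Figure D4:**
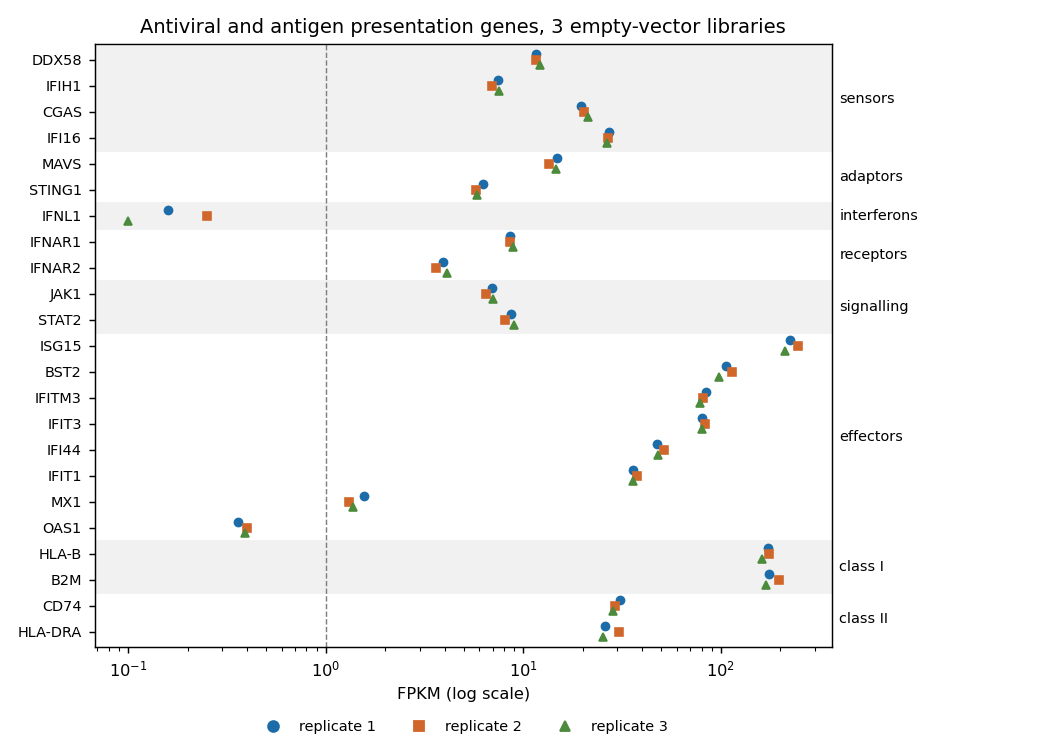
FPKM (log scale) of sensors, interferon pathway genes, effectors and antigen presentation genes in each of the 3 empty-vector libraries, 1 symbol per replicate; the dashed line is 1 FPKM. ISG15 is highest of the effectors shown at 228, and IFNL1 and OAS1 fall under the line.

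CpG content of promoters also differed with the level of expression across genes. The ratio of observed to expected CpG in the 300 bases had a median of 0.857 over 8164 expressed protein-coding genes and 0.618 over 4683 others. It was above 0.6 for 90.9% of the 254 genes at 100 FPKM or more and for 35.0% of the 1848 genes with at most 10 reads in all. The letters TATAAA stood within the 50 bases before the start, on the gene's strand, in 5.91% of the genes at 100 FPKM or more, 1.62% of all expressed genes, 4.91% of those not expressed and 6.87% of those with at most 10 reads, so this share was high at both ends. Genes are not independent replicates, so these shares are descriptions.

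The 3 libraries agreed closely for most genes. Over 15619 genes edgeR estimated a biological coefficient of variation, the spread beyond counting error, of 5.13%. Counts scaled by TMM to the size of each library (CPM) were used for the spread. Of 9641 genes at a mean CPM of at least 10, 58.2% had a highest value less than 1.1 times the lowest, and 722, or 7.49%, reached 1.2 times. Only 6 genes reached 1.5 times and none 2 times. Each pair of libraries still differed by more than counting noise. Chi-square per degree of freedom lay between 4.78 for replicates 1 and 3 and 10.6 for replicates 2 and 3. Such a value is set against counting noise alone, so it cannot show whether the samples were independent. The 3 were counted as separate samples by their labels. The labels call the replicates biological and say nothing more of their source.

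Of the 10 genes of widest spread, 5 are ribosomal protein genes or their pseudogene copies. RPS3AP26, a processed pseudogene, had the largest ratio of highest to lowest CPM, 1.67, followed by the ankyrin repeat gene ANKRD12 at 1.53, CTD-2550O8.5 at 1.52 and the ribosomal protein RPS13 at 1.51. RPS13 was at 544, 736 and 488 CPM, highest in replicate 2. ANKRD12, with a long transcript, was at 29.7, 38.7 and 45.4 CPM, highest in replicate 3. Also among the 10 were RPL9P9, RPS15A, NDUFB1, COPS9 and RPS29, with ratios from 1.51 down to 1.47. Among the genes of the lists above, TXN had the widest ratio, 1.35, then LDHB at 1.32, PSMB9 at 1.31, CXCL1 at 1.29 and LGALS1 at 1.29.

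Whole groups moved together between libraries. The list of 73 cytosolic ribosomal protein genes leaves out RPLP0 and others named RPLP. Its median log2 difference from each gene's own 3-library mean was -0.02, 0.18 and -0.15 in replicates 1, 2 and 3. Of the 73 genes 69, or 94.5%, followed the order replicate 2, 1, 3. Among all 9641 genes 20.6% had that order. A list of 75 nuclear genes of oxidative phosphorylation had medians of -0.03, 0.17 and -0.12, with 66 in that order. It holds the assembly factors UQCC1, UQCC2 and UQCC3 and no complex II gene. Both lists were drawn up after these libraries had been seen, so their counts are descriptions. The 13 protein genes of the mitochondrial genome were at 0.05, 0.00 and -0.05. The medians of 42 interferon effectors lay within 0.03 of 0 and those of 34 glucose genes within 0.02, though 3 and 2 genes of these lists reached a ratio of 1.2.

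The same pattern ran along transcript length. For 183 genes with principal transcripts under 750 bases the medians were -0.03, 0.16 and -0.13, and for 1574 genes of 6000 bases or more they were 0.00, -0.04 and 0.04. Replicate 2 was thus highest for short transcripts and lowest for long ones, and replicate 3 the reverse. The directions in replicates 2 and 3 were the same with RLE factors. With library size alone they were the same too, except for the 3094 genes of 1500 to 3000 bases, whose small differences turned from 0.01 and -0.02 to -0.01 and 0.01. Ribosomal protein transcripts are mostly short, and the part of transcript length in their spread was not tested. TXN and LGALS1, described above, were also highest in replicate 2 and lowest in replicate 3.

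**Figure D5:**
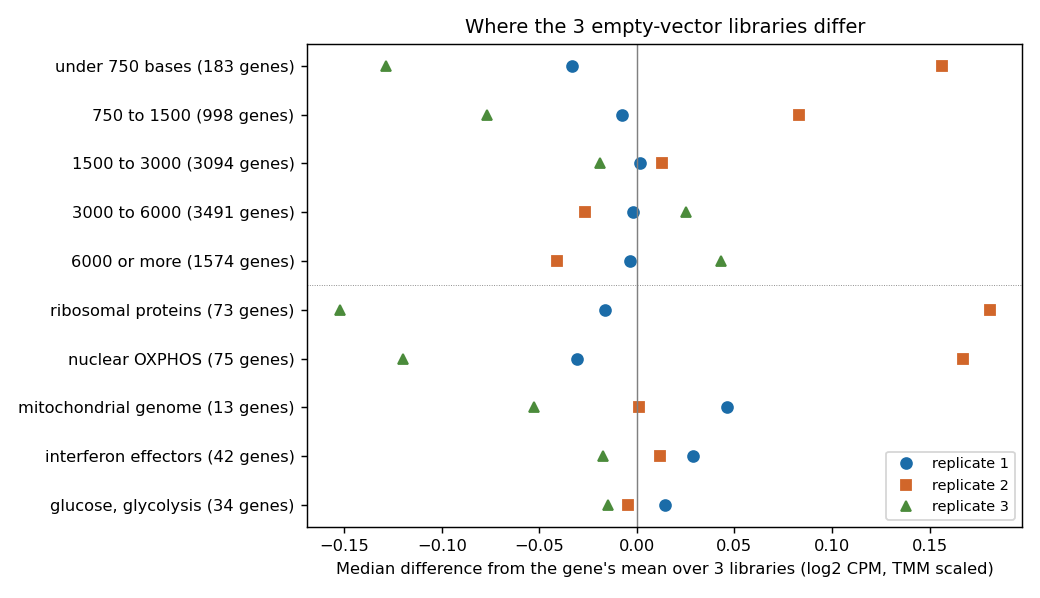
Median difference of each library from the gene's own 3-library mean, in log2 CPM, for genes grouped by principal transcript length (above the dotted line) and by list (below it). Replicate 2 is right of 0 and replicate 3 left of 0 for transcripts under 1500 bases, and the reverse holds at 3000 bases or more, while the class between turned direction with library size alone. Ribosomal proteins reach 0.18 and -0.15.

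Levels depend on the length that FPKM divides by. The length implied by reads and FPKM was 1.59 times the principal transcript at the median of expressed protein-coding genes, and that of EEF1A1 was 11082 bases. Genes with long minor isoforms therefore stand lower than their main transcript would. With principal transcript lengths, 11 of the 20 highest nuclear genes were shared, and ACTB moved to second at 3387.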

How the data were processed

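RNA-seq of 3 empty-vector MDA-MB-231 libraries was used. TRIZOL-extracted, DNase-treated total RNA was sequenced in paired-end mode, per the labels' protocols. The submitters' processing notes name bcl2fastq, FastQC, HISAT2 and GRCh38. Which counter, strand setting and gene annotation made the tables is not given in the sources used here, and values of overlapping or antisense genes are therefore uncertain. The authors deposited whole-number counts per gene (29710 genes) and FPKM values rounded to 2 decimals (29256 genes). The 454 genes without FPKM had at most 8 reads in a library.

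Identifiers were matched without version to GENCODE 29 (28804 matched) for coordinates, overlaps and transcript lengths, and promoters to RefSeq by symbol (12847 of 16623 protein-coding rows). Counts were scaled with edgeR 4.0.16 in R 4.3.3 (filterByExpr, then TMM factors and estimateDisp without groups). The estimate was tested on simulated counts of known spread, drawn for each gene independently. Genes that move together between libraries were not simulated. Tables and plots used Python 3.11.15 and matplotlib 3.10.9. No p-value was computed, because 1 group allows no comparison.

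The members and the 35 gene lists (796 genes) were chosen with earlier results of these data known. The named genes were the 20 nuclear genes of highest FPKM, the mitochondrial protein genes, the 4 highest of each role, every member of roles with up to 9 genes, 12 fixed genes, and the 10 genes of widest spread; others were named after their values were seen. Some genes that this rule names are not reported here. Depth was 33590410 to 36225361 reads per library. Alternatives were other thresholds, TPM, other scalings, leaving out each replicate, and, added after seeing the data, principal transcript length.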

Additional observations from a re-analysis of the deposited data

How the results depend on the processing

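The count of 11142 expressed genes was 12786 at 0.5 FPKM, 6117 at 5 FPKM, 13729 at 1 TPM and 11408 for a mean of at least 1; leaving out 1 replicate gave 11207 to 11259. With principal transcript lengths, 10785 protein-coding genes passed in place of 10136, of 16526 with such a length. The mitochondrial share of 9.51% of reads was 31.0% of the FPKM sum, and 9.35% to 9.60% without 1 replicate. The 100 most counted genes took 24.1% of reads on average, the 100 highest by FPKM 47.5% of the FPKM sum, and the 100 most counted nuclear genes 17.5% of nuclear reads; without 1 replicate the share of reads was 24.0% to 24.4%. The biological coefficient of variation of 5.13% ranged from 4.20% without replicate 2 to 6.18% without replicate 1, and from 5.07% to 5.29% under other scalings and filters. The median coefficient of variation of 4.76% was 3.70% to 4.35% without 1 replicate. Of the 35 lists, 15 changed their count of expressed members by over 1.5 times at 5 FPKM, 2 at 0.5 FPKM, 5 at 1 TPM, 1 with principal lengths and none without a replicate. The 5 at 1 TPM were basal keratins (0 to 2) and markers of leukocytes (2 to 4), endothelium (2 to 4), fibroblasts and adipocytes (0 to 2) and other organs (1 to 3). No paired analysis was possible because only 1 group was described. Levels under 0.1 FPKM rest on few reads, so orders among them cannot be read.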

Other observations

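Matrix proteases and their inhibitors were expressed in 27 of 35 cases, or 77.1%, against 61.2% of protein-coding genes. In the plasminogen system, which cuts fibrin and matrix, the activator PLAU was at 129.8, 124 and 125 FPKM. Its receptor PLAUR was at 32.4, PLAT at 28.8, and SERPINE2 and SERPINB2 at 2.17 and 1.67. PLAU was not the highest of the 6 members of this system, and the highest is not reported here. The membrane protease MMP14 was at 83.3, 74.7 and 79.2 and the collagenase MMP1 at 16.1, 17.8 and 15.8. The gelatinases MMP2 and MMP9 were at 0.0133 and 0.307. Of the inhibitors, TIMP1 was at 199, 197 and 189.7, TIMP2 at 78.8 and TIMP3 at 69.1, and BSG, which induces metalloproteases, at 125. Cathepsin D, from CTSD, was at 79.6, CST3 at 67.3, CSTB at 55.7 and CTSB at 39.1.

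Secreted immune factors were led by IL6, an inflammatory cytokine, at 56.9, 52.2 and 52.6 FPKM, with the colony-stimulating factors CSF1 at 46.01, 41.6 and 44.1 and CSF2 at 40.9, 43.8 and 38.7. TNFSF10, the death ligand TRAIL, was at 27.9, while TNF had 2 reads in all. Among chemokines CXCL1, CXCL8, CXCL2 and CXCL11 were at 16.2, 13.5, 9.25 and 3.34. Of 36 such genes 23 were expressed, near the 61.2% of protein-coding genes. Of 15 checkpoint ligands 9 were: NT5E, which makes adenosine, was at 95.3, 96.6 and 98, NECTIN2 at 39.6, PVR at 24.3, CD47 at 13.6 and CD274, or PD-L1, at 6.8, 6.82 and 7.15. Proliferation genes were expressed in 18 of 21 cases, or 85.7%, against the same 61.2%. PCNA was at 142, 163 and 145, cyclin CCNB1 at 123, CCND1 at 85.3 and CCNA2 at 63.3. MYC was at 30.1, and MYCN had a single value above 0, of 0.01.

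Among long noncoding RNAs that no annotated gene overlaps on their strand, RP5-940J5.9, RP11-54H7.4 and RP11-138I1.4 were at 283, 111 and 48.6 FPKM. Overlap with genes on the opposite strand was not examined. The strand setting of the counting is not given, so values in this set are uncertain too. Also in this set were NORAD at 42.8, 41.2 and 47.8 and LINC00973 at 36.9, 41.6 and 34.1. Both NORAD and LINC00973 were picked after their values were seen. UCA1, with a slight overlap, was at 32.8.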
